A study of Mus musculus with 10 samples.

Results

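The genes described here lie beside Ptpn6 on mouse chromosome 6. Ptpn6 encodes SHP-1, the tyrosine phosphatase whose gene is mutated in the study's heterozygous and homozygous mice. A list of 45 neighbouring genes was matched to the array annotation by gene symbol, and 41 of the 45 had a probe set that names that gene alone. Rbp5, Lpar5, Ano2 and Ntf3 had none and were not analysed here. The 41 genes were read by 66 probe sets, and the probe set of highest mean stands for each gene, among 18193 genes read in the same way. The rule that chose the genes is their position beside Ptpn6, and the list was drawn up with earlier results of these data known.

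RNA came from CD4+CD25+ T cells, a fraction rich in regulatory T cells, isolated with a kit from pooled lymph node sites of BALB/c mice aged 17 to 19 days and used without culture. The groups were wild type mice (WT, 4 arrays), mice heterozygous for the SHP-1 knockout (he, 3 arrays) and mice homozygous for it with the motheaten phenotype (me, 3 arrays). Each array is called a biological replicate in the labels, with nothing said of separate animals or of pooling, so the p-values measure the spread between these arrays. The labels give BALB/c for every array and do not say on which strain the mutation arose or how much of the surrounding chromosome came with it.

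SHP-1 removes phosphate from tyrosines and restrains signalling from antigen, cytokine and growth factor receptors in blood cells. Its loss in motheaten mice causes severe inflammation and an overgrowth of myeloid cells. Genes next to a mutated gene are inherited along with it, so mice with 1 or 2 mutant copies also carry 1 or 2 copies of whatever alleles lie beside it. A transcript that follows such an allele would be graded, with he midway between WT and me on the linear scale. On the log2 scale used below, he would then lie somewhat nearer to whichever of WT and me is higher. The log2 midpoint used in the comparisons is thus an approximation. One that follows the complete loss of the protein would be recessive, with he at the WT level. A transcript that follows the dose of SHP-1 would be graded too, so a linked allele and SHP-1 dose cannot be told apart by shape. The comparisons below ask which of these shapes the 41 genes had. The stretch holds genes of many unrelated roles, from mitosis and ribosome assembly to complement, pluripotency and the clotting factor gene Vwf.

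Levels are log2(intensity + 32) after quantile normalisation, and differences are log2 differences from a limma fit that takes out the difference between 2 sets of arrays. The sets were found by clustering the arrays and are not named in the labels. Set A held WT 1, WT 2, he 1, me 1 and me 3, and set B held WT 3, WT 4, he 2, he 3 and me 2. The first principal component, which separates the sets, held 82.04% of the variance between arrays, and me 3 lay between the sets on it. Xist and the Y-linked gene Eif2s3y placed 2 of the 4 WT, 0 of the 3 he and 2 of the 3 me arrays as male. The markers of CD4+CD25+ T cells were well expressed, with mean levels of 11.11 for Foxp3 and 12.18 for Ikzf2. The mean log2 level of the CD8 T cell markers differed between the array sets, at 7.59 to 7.73 in set A and 9.46 to 9.95 in set B. Of 8 myeloid markers, 4 were higher in me than in WT at an unadjusted p under 0.05, and the list's array means ran from 7.47 to 7.68 in WT, from 7.47 to 7.79 in he and from 7.56 to 8.0 in me. Of 4 markers of antibody-secreting cells, 3 were higher, with array means of 8.29 to 8.77 in WT, 8.47 to 8.77 in he and 8.92 to 10.21 in me. An unadjusted p under 0.05 was found for 1 of 4 B cell markers, 0 of 5 markers of endothelial cells and platelets, 0 of 4 stromal markers and 0 of 2 CD8 markers in limma. The part of these cells in the differences below was not tested, and in such bulk RNA fewer cells of a type and less RNA per cell cannot be told apart.

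Ptpn6 itself was lower with each mutant copy. At the brighter of its 2 probe sets the log2 levels were 9.55, 9.63, 9.83 and 9.81 (WT), 9.30, 9.33 and 9.54 (he) and 8.84, 9.08 and 9.05 (me). The 3 genotypes did not overlap. Me was 0.69 ± 0.07 (SE, n = 3 against 4) below WT, a 1.61-fold lower signal, and he covered 50.13% of that distance. In limma the adjusted p of that difference was 0.0549 and that of the slope per mutant copy 0.0508, both just above the threshold of 0.05. The 2-sided exact permutation test gave 0.0571 when WT was set against me or against he, and 0.1 between he and me, which are the lowest p-values that so few arrays can reach. The dimmer probe set gave a difference of -1.06 ± 0.12 (SE) with he at 45.17% of it. At the brighter probe set the 95% interval of he minus the midpoint of WT and me was -0.15 to 0.15, centred on 0 as in a series with equal log2 steps.

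Promoter sequences are shown for 3 neighbours. Cops7a, a subunit of the COP9 signalosome, had the smallest p of the 41, and Cdca3 and Ncapd2 are the 2 members with a role in cell division. The sequences run 5′ to 3′ from 250 bases before to 50 bases after the annotated start (RefSeq, GRCm38.p6), at chr6:124965463-124965762 on the minus strand for Cops7a (1 of its 2 windows), chr6:124829926-124830225 on the plus strand for Cdca3 and chr6:125191537-125191836 on the minus strand for Ncapd2. Capitals mark the ETS core CCGGAAG in Cops7a. In the other two they mark CCAAT boxes (CCAAT, or ATTGG on the other strand) and the cell cycle homology region, CHR, a short element found in many promoters of mitotic genes (TTTGAA or TTCAAA, with TTCGAA also searched).
Cops7a: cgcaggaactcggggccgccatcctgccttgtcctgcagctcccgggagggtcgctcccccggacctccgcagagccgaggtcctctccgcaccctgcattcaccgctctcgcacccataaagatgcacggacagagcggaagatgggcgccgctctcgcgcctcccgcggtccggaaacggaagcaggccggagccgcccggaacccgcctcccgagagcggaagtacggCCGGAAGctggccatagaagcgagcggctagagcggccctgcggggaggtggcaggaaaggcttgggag
Cdca3: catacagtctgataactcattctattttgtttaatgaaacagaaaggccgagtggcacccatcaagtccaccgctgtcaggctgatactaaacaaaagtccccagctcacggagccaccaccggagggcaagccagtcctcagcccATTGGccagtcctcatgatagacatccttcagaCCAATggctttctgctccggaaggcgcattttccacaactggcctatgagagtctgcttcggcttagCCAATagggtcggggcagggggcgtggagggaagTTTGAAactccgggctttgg
Ncapd2: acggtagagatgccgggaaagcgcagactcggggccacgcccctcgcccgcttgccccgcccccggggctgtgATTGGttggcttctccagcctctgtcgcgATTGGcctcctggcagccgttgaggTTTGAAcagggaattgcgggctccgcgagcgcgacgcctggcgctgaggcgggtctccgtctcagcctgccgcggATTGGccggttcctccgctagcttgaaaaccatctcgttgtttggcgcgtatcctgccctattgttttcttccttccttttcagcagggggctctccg
The Cdca3 window held 1 CHR, 31 bases after the start, and 3 CCAAT boxes. It also held 1 ETS core, 55 bases before the start, which is not in capitals. The Ncapd2 window held 1 CHR, 123 bases before the start, and 3 CCAAT boxes. A Pianp window, 1 of its 3 and not shown, was also searched and held no CHR, CCAAT box or ETS core. Both strands were searched in 32851 windows of 300 bases, of which 37.4% held a CCAAT box, 17.9% the TTTGAA form, 1.56% the TTCGAA form, and 8.86% the ETS core. A CCAAT box together with either CHR form was in 7.52% of the windows and in 2 of the 30 members with a window, Cdca3 and Ncapd2. Of the 30 members, 9 held a CCAAT box, 7 the TTTGAA form and 1 the TTCGAA form. At least 3 CCAAT boxes were in 3.37% of the windows and in 4 of the 30 members. The ETS core was in 9 of the 30. A member was counted if any of its windows held the match, so the counts of members and the shares of windows are unlike units. A match describes the letters and is not a bound site.

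No member passed the threshold of an adjusted p under 0.05 (limma, Benjamini-Hochberg over 45037 probe sets) in any of 5 comparisons. The background was as low. Of all probe sets, 0.00666% were called for me minus WT (3 probe sets), and 0% for he minus WT, 0% for me minus he, 0% for the slope per mutant copy and 0% for he minus the midpoint of WT and me. At an unadjusted p under 0.05, 8 of the 41 members (19.5%) stood apart between me and WT, against 5.07% of all genes. They were Cops7a, Pianp and Emg1, which were lower in me, and Apobec1, Phc1, Cdca3, Zfp384 and Ncapd2, which were higher. For the slope per mutant copy the count was also 8 (19.5%) and held the same genes, against 5.45% of all genes. The slope rests largely on me minus WT, so this is not a separate result and does not tell graded from recessive shifts. Only 2 members (4.88%), Cops7a and Pianp, had an unadjusted p under 0.05 between he and WT, against 2.28% of all genes. Between me and he only Apobec1 (2.44%) had one, against 3.52%.

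The 8 genes were all among the 23 members at or above the median level of all genes, 7.90. That makes 34.78% of the brighter members, beside 7.596% of all genes at or above that level for the slope. Of the 18 members below it, 0 passed an unadjusted p of 0.05 for the slope in limma, beside 3.309% of the dimmer genes. The members as a whole were not shifted one way. In me against WT, 21 were higher and 20 lower, with a median difference of 0.0034 and a median size of 0.0519, while the median size over all genes was 0.0576. The 95% interval of me minus WT lay within 0.5 either way for 32 of the 41 members and within 1 for 39. The 2 Ptpn6 probe sets, at -0.69 and -1.06, also missed the threshold, with adjusted p-values of 0.0549 and 0.0908 in limma, so a count of 0 called members does not show that members did not differ.

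**Figure D1:**
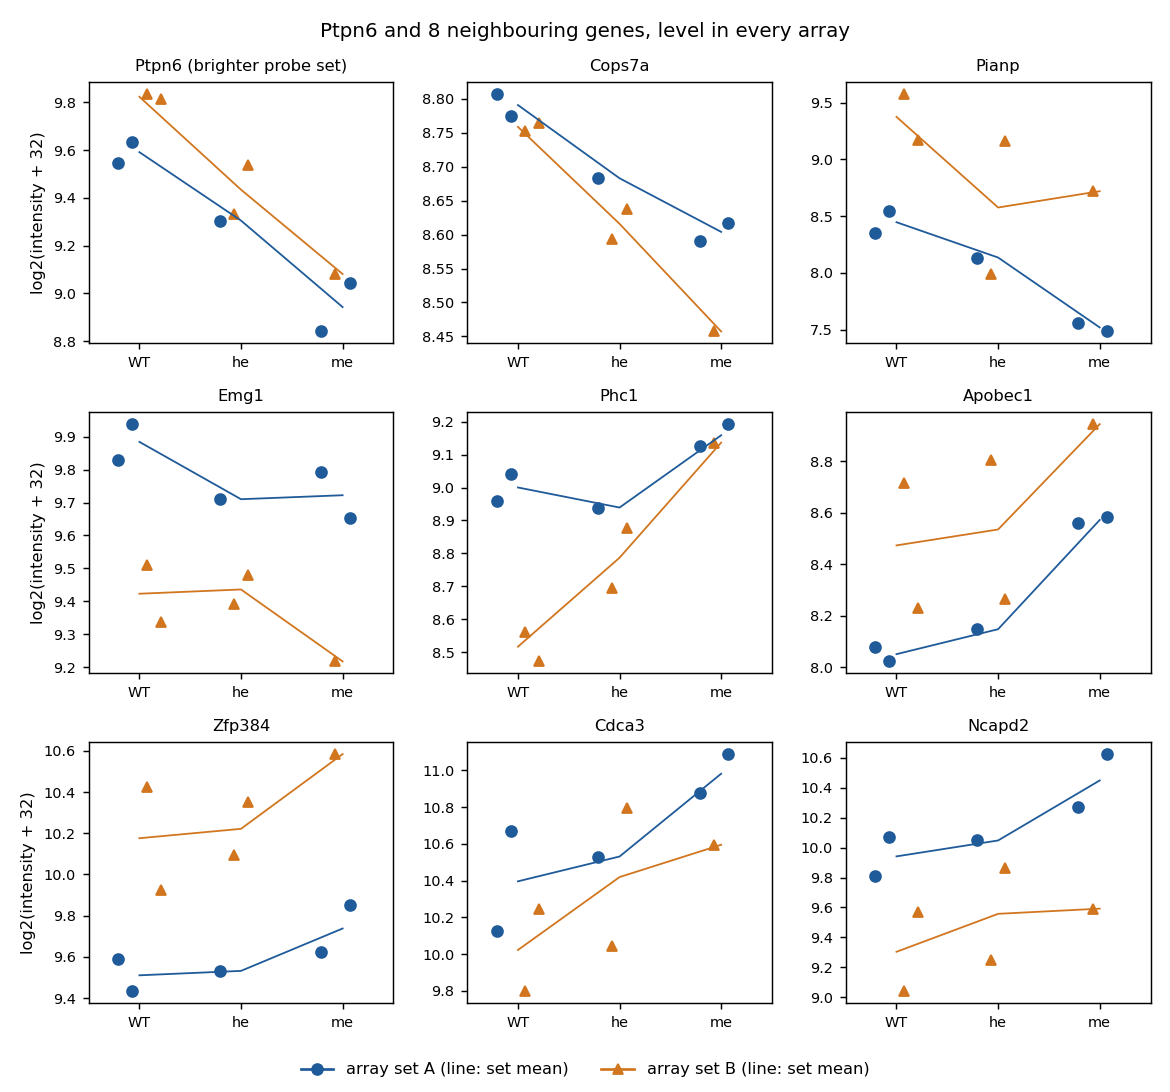
Level of Ptpn6 and of the 8 neighbours with an unadjusted p under 0.05 (log2 of intensity + 32, vertical axes on different ranges) in each WT, he and me array. Circles are arrays of set A and triangles arrays of set B, with a line through each set's means. Cops7a descends in both sets as Ptpn6 does, while the set means of Zfp384 are higher in set B in every genotype and those of Emg1 and Ncapd2 lower.

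Among the genes for protein turnover, Cops7a stood apart from WT in both he and me. Cops7a log2 levels were 8.81, 8.77, 8.75 and 8.76 (WT), 8.68, 8.59 and 8.64 (he) and 8.59, 8.46 and 8.62 (me). Every WT array lay above every he and me array, while he and me overlapped, since he 2 was below me 3. Cops7a was the one member with WT outside all other arrays, a shape held by 0.181% of all genes. It did not have this shape without normalisation between arrays, with median centring or with its 2 probe sets averaged. The difference of me from WT was -0.23 ± 0.04 (SE; limma unadjusted p = 0.000506, adjusted p = 0.604), and that of he was -0.12 ± 0.04 (unadjusted p = 0.0194, adjusted p = 1), so he covered 53.44% of the distance. The slope was -0.12 ± 0.02 per copy (limma unadjusted p = 0.000216, adjusted p = 0.665). Within the sets, me minus WT was -0.19 (A) and -0.30 (B), and he minus WT was -0.11 (A) and -0.14 (B). After each array was expressed against its set's mean, Cops7a was the one member whose 3 genotypes lay in the order of the mutant copies with no overlap, beside 0.11% of all genes. On plain levels 0 members had that shape, beside 0.0165% of genes. The shift was small, 1.17-fold, and a second Cops7a probe set, which differed strongly between the array sets, gave -0.05. With the 2 probe sets averaged, me minus WT became -0.14 and he minus WT -0.05, and without me 2 the step from he to me was -0.07 in place of -0.11.

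The other 3 genes of this group had an unadjusted p above 0.05 in me against WT. Spsb2, an adaptor that brings substrates to a ubiquitin ligase, stood at 0.04 ± 0.13 (SE) and Usp5, which takes apart free ubiquitin chains, at 0.00 ± 0.08 in me against WT. Mlf2, whose role is less clear, stood at -0.16 ± 0.08, with he at -0.06 ± 0.08 and all 3 me arrays below their own set's WT mean. In Mlf2 me minus WT was -0.25 within set A and -0.02 within set B.

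Pianp had the largest difference of the 41. It encodes a membrane protein that binds the inhibitory receptor PILR-alpha and lies next to Cops7a. On the log2 scale Pianp levels were 8.35, 8.54, 9.57 and 9.17 (WT), 8.13, 7.99 and 9.16 (he) and 7.55, 8.72 and 7.48 (me). The genotypes overlapped: the set B arrays WT 3, WT 4, he 3 and me 2 were the 4 highest, while he 2 of that set was below every WT array. Each he and me array was below the mean of its own set's WT arrays. Relative to their set's mean the WT arrays lay outside all others in Pianp and Cops7a, 2 of the 41 members, beside 1.17% of all genes. The fitted difference was -0.85 ± 0.26 (SE; limma unadjusted p = 0.0103, adjusted p = 0.989) for me, a 1.80-fold lower signal, and -0.63 ± 0.26 (unadjusted p = 0.0405, adjusted p = 1) for he. He thus reached 73.92% of the me difference. The interval for he minus the midpoint, -0.75 to 0.34, holds both equal steps and a full shift in he. Within the sets, he minus WT was -0.31 (A) and -0.80 (B), and me minus WT was -0.93 (A) and -0.66 (B). In set B he was thus below me, while in set A it was above. The he value rested on he 2: without that array he minus WT was -0.27. The second Pianp probe set, at a mean level of 7.48, gave -0.02, and the mean of both gave -0.44 for me.

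The 3 other members listed as immune genes had an unadjusted p above 0.05 in me and he against WT. Tapbpl, a peptide editor of MHC class I, gave -0.10 ± 0.08 (SE) in me and 0.06 ± 0.08 in he. Ltbr, the lymphotoxin beta receptor, gave -0.01 ± 0.06 and 0.02 ± 0.06, and the tetraspanin Cd9 gave 0.01 ± 0.12 and -0.10 ± 0.12. Ltbr was dim, at a mean level of 7.49.

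Both cell division genes were higher in me. Cdca3 helps to start mitosis by targeting the mitotic inhibitor Wee1 for destruction. The log2 levels of Cdca3 were 10.12, 10.67, 9.80 and 10.25 (WT), 10.53, 10.04 and 10.79 (he) and 10.87, 10.59 and 11.09 (me). Me overlapped WT and he, since WT 2 and he 3 were above me 2. The difference was 0.59 ± 0.20 (SE; limma unadjusted p = 0.0173, adjusted p = 0.989) in me and 0.30 ± 0.20 (unadjusted p = 0.177) in he, 50.20% of the way. Me minus WT was 0.59 within set A and 0.57 within set B. The 2 dimmer Cdca3 probe sets gave 0.01 and 0.02, and the mean over all 3 gave 0.21.

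Ncapd2 encodes a subunit of condensin, the complex that compacts mitotic chromosomes. On the log2 scale Ncapd2 levels were 9.81, 10.07, 9.04 and 9.57 (WT), 10.05, 9.25 and 9.86 (he) and 10.27, 9.59 and 10.63 (me). The highest 2 arrays were me 1 and me 3, while me 2 lay among the WT and he arrays. The difference was 0.43 ± 0.18 (SE; limma unadjusted p = 0.0426, adjusted p = 0.989) in me and 0.21 ± 0.18 in he, 48.28% of the way, and a second probe set gave 0.13. With both probe sets averaged the slope was 0.14 per copy in place of 0.22.

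A list of 10 markers of dividing cells, of which 9 were measured, stands beside these values. Its array means were 10.58, 10.53, 9.81 and 10.40 (WT), 10.57, 9.75 and 10.53 (he) and 10.72, 9.96 and 10.71 (me). The lowest array of each genotype, WT 3, he 2 and me 2, was the lowest in Ncapd2 too. In the fit 7 of the 9 were higher in me and 0 passed an unadjusted p of 0.05 in limma, with a median difference of 0.03. Mki67 gave 0.14, Top2a 0.14 and the condensin gene Ncapg 0.03. Of the 9 markers 2 were lower in me, the lowest at -0.11. Whether the 2 neighbours of Ptpn6 differed from these markers was not tested.

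Among genes of chromatin and transcription, Phc1 and Zfp384 stood apart. Phc1 encodes a subunit of the Polycomb repressive complex and is the member farthest from Ptpn6 on the low side. The log2 levels of Phc1 were 8.96, 9.04, 8.56 and 8.47 (WT), 8.94, 8.70 and 8.88 (he) and 9.13, 9.14 and 9.19 (me). All 3 me arrays were above every other array, a shape that 1 of the 41 members and 0.577% of all genes had. Phc1 did not have this shape without normalisation between arrays or with median centring. The difference was 0.35 ± 0.10 (SE; limma unadjusted p = 0.00623, adjusted p = 0.989) in me and 0.12 ± 0.10 in he, 34.88% of the way. It was uneven between the sets, at 0.16 within set A and 0.62 within set B. Without me 2 it was 0.23, and me minus he was 0.09 in place of 0.23.

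Zfp384 encodes a zinc finger transcription factor. On the log2 scale Zfp384 levels were 9.59, 9.43, 10.42 and 9.93 (WT), 9.53, 10.09 and 10.35 (he) and 9.62, 10.58 and 9.85 (me). The genotypes overlapped across the whole range, with set B above set A. The difference was 0.30 ± 0.12 (SE; limma unadjusted p = 0.0417, adjusted p = 0.989) in me and 0.03 ± 0.12 in he, 9.32% of the way. This value depended on where me 3 was placed: with me 3 counted in set B it was 0.07, and with no array set it was 0.18. Chd4, the ATPase of the NuRD remodelling complex and one of the brightest members at a mean level of 11.17, gave -0.03 ± 0.08 in me and -0.11 ± 0.08 in he. The forkhead factor Foxj2 gave 0.22 ± 0.13, the corepressor Atn1 -0.02 ± 0.07 and the acetyltransferase subunit Ing4 0.01 ± 0.08 in me.

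Apobec1 had the smallest p of the 41 between me and he, with he close to WT. It encodes the cytidine deaminase that edits apolipoprotein B mRNA. The log2 levels of Apobec1 were 8.08, 8.02, 8.72 and 8.23 (WT), 8.15, 8.80 and 8.27 (he) and 8.56, 8.94 and 8.58 (me). The groups overlapped because WT 3 and he 2 were high, but relative to their own set's mean the me arrays were outside all others, as for 2 of the 41 members and 2.04% of all genes. The difference was 0.50 ± 0.14 (SE; limma unadjusted p = 0.00604, adjusted p = 0.989) in me, 1.41-fold, and 0.08 ± 0.14 in he, 15.51% of the way. Me minus WT was 0.52 within set A and 0.47 within set B, and me exceeded he by 0.42 ± 0.15 (limma unadjusted p = 0.0222, adjusted p = 0.999). The interval for he minus the midpoint, -0.46 to 0.12, held 0.

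The genes for ribosome assembly and the mitochondrial ribosome gave negative differences at their brightest probe sets, none past the adjusted threshold. Emg1 methylates ribosomal RNA of the small subunit and lies 2 genes from Ptpn6. On the log2 scale Emg1 levels were 9.83, 9.94, 9.51 and 9.34 (WT), 9.71, 9.39 and 9.48 (he) and 9.79, 9.22 and 9.65 (me), with overlap between all 3 genotypes. The difference was -0.17 ± 0.07 (SE; limma unadjusted p = 0.0421, adjusted p = 0.989) in me and -0.06 ± 0.07 in he. Nop2, which methylates ribosomal RNA of the large subunit, gave -0.09 ± 0.09 in me and -0.06 ± 0.09 in he. Mrpl51, a protein of the mitochondrial ribosome, gave -0.15 ± 0.09 in me and -0.20 ± 0.09 in he (limma unadjusted p = 0.0540, adjusted p = 1). In Mrpl51 the lowest array was he 2 at 10.52, and without it he minus WT was -0.10. Its 2 dimmer probe sets pointed the other way, at 0.10 and 0.10 for me minus WT.

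Phb2, Lpcat3 and Pex5 had an unadjusted p above 0.05 in me against WT in limma. Phb2, a prohibitin of the inner mitochondrial membrane and the gene directly before Ptpn6, was the brightest member. The log2 levels of Phb2 were 11.89, 12.29, 12.62 and 12.54 (WT), 11.81, 12.38 and 12.67 (he) and 11.96, 12.66 and 12.07 (me), with the 5 arrays of set B above the 5 of set A. Its difference was 0.00 ± 0.11 (SE) in me and -0.15 ± 0.11 in he, with a 95% interval in me of -0.25 to 0.25. Lpcat3, which builds polyunsaturated phospholipids, gave 0.15 ± 0.09 in me, from -0.03 in set A and 0.42 in set B. The peroxisomal import receptor gene Pex5 gave 0.00 ± 0.10.

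Nanog and Dppa3 were read near the bottom of the scale. The pluripotency gene Nanog had log2 levels of 7.14, 7.05, 7.10 and 7.05 (WT), 7.01, 6.99 and 6.95 (he) and 7.03, 7.11 and 7.09 (me), lower than all but 2.92% of genes. The 3 he arrays were the lowest of the 10, and he lay -0.10 ± 0.04 from the midpoint of WT and me (SE; limma unadjusted p = 0.0486, adjusted p = 1). It was the 1 member of the 41 (2.44%) at an unadjusted p under 0.05 for this departure, beside 2.45% of all genes, and the value was -0.06 with a larger pseudocount. Dppa3, a maternal factor that guards DNA methylation, gave -0.04 ± 0.06 in me. Gdf3, a ligand of the TGF-beta family, gave 0.19 ± 0.09 in me and 0.10 ± 0.09 in he.

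The complement and scavenger receptor genes were C3ar1, C1ra and Cd163. C3ar1, which myeloid cells use to sense the complement fragment C3a, had log2 levels of 7.13, 7.30, 8.45 and 8.15 (WT), 7.15, 8.37 and 8.23 (he) and 7.23, 8.31 and 7.98 (me). The set B arrays and me 3 were high in every genotype, and the fitted difference was 0.25 ± 0.17 (SE) in me and 0.00 ± 0.17 in he. The complement protease gene C1ra gave 0.06 ± 0.06 in me. The macrophage receptor gene Cd163 gave 0.01 ± 0.05, at a mean level that only 2.22% of genes were below. The clotting factor gene Vwf, which endothelial cells and platelets express, was as dim at a mean level of 7.15, and gave -0.05 ± 0.06.

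Genes of membrane traffic and secretion gave small differences in me: the SNARE gene Vamp1 0.15 ± 0.14 (SE), the clathrin adaptor gene Necap1 0.00 ± 0.09, the synaptic adhesion gene Clstn3 -0.05 ± 0.05 and the acrosome gene Acrbp -0.04 ± 0.05. Genes of signalling did too. The orphan receptor gene Gpr162 gave 0.04 ± 0.13, the G protein subunit gene Gnb3 0.05 ± 0.09, Plekhg6 -0.02 ± 0.09 and the sodium channel gene Scnn1a -0.03 ± 0.06. Of the genes outside these roles, Iffo1 gave 0.11 ± 0.18, the small acidic protein gene Ptms 0.02 ± 0.10 and the leucine-rich repeat gene Lrrc23 0.06 ± 0.09. In Lrrc23 the array he 3 stood alone at 7.92 while the other 9 lay between 7.43 and 7.57.

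**Figure D2:**
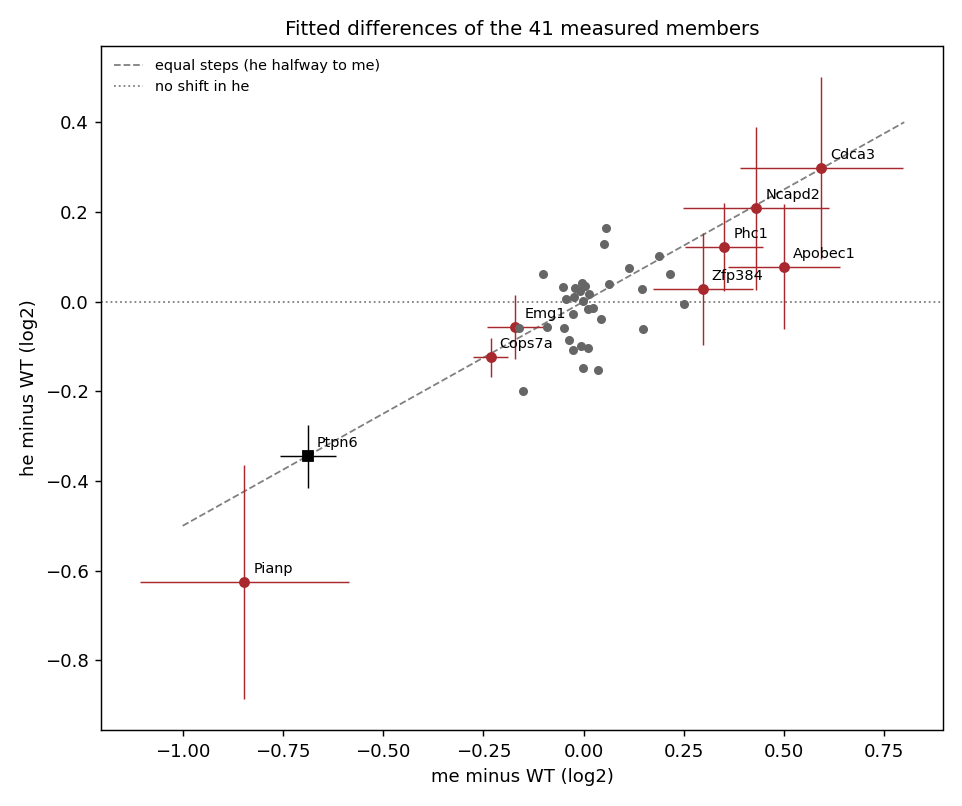
He minus WT against me minus WT (log2) for the 41 measured members as points and the brighter Ptpn6 probe set as a square, with bars of ± 1 SE for Ptpn6 and the 8 named genes. The dashed line marks equal steps and the dotted line no shift in he. Cops7a, Cdca3, Ncapd2 and Ptpn6 lie on the dashed line, and Apobec1 and Zfp384 near the dotted line.

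Read as shapes, the 8 genes could mostly not be sorted. The 95% interval of he minus the midpoint held 0 in 8 of 8, so a graded series was compatible with each. This says little about the 8, since only 2.45% of all genes departed from the midpoint at an unadjusted p under 0.05 in limma. The 8 were also picked by their p-values in these same data. The interval of he minus WT held 0 in 6 of 8, all but Cops7a and Pianp, so in those 6 a recessive shape was compatible too. Of all genes, 2.28% had an unadjusted p under 0.05 for he minus WT in limma. He was nearer to WT than to me in 5 of the 8. Every he array was on the same side of its own set's WT mean as me in 3 of the 8. For these last 2 counts the share over all genes was not computed. Over all 41 members the fitted he value lay between WT and me in 15 (36.6%), beside 36.5% of all genes. The interval of he minus the midpoint held 0 in 40. The 1 that did not, Nanog, is 2.44% of the members, beside 2.45% of all genes. A member with no difference in me has no shape to judge.

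**Figure D3:**
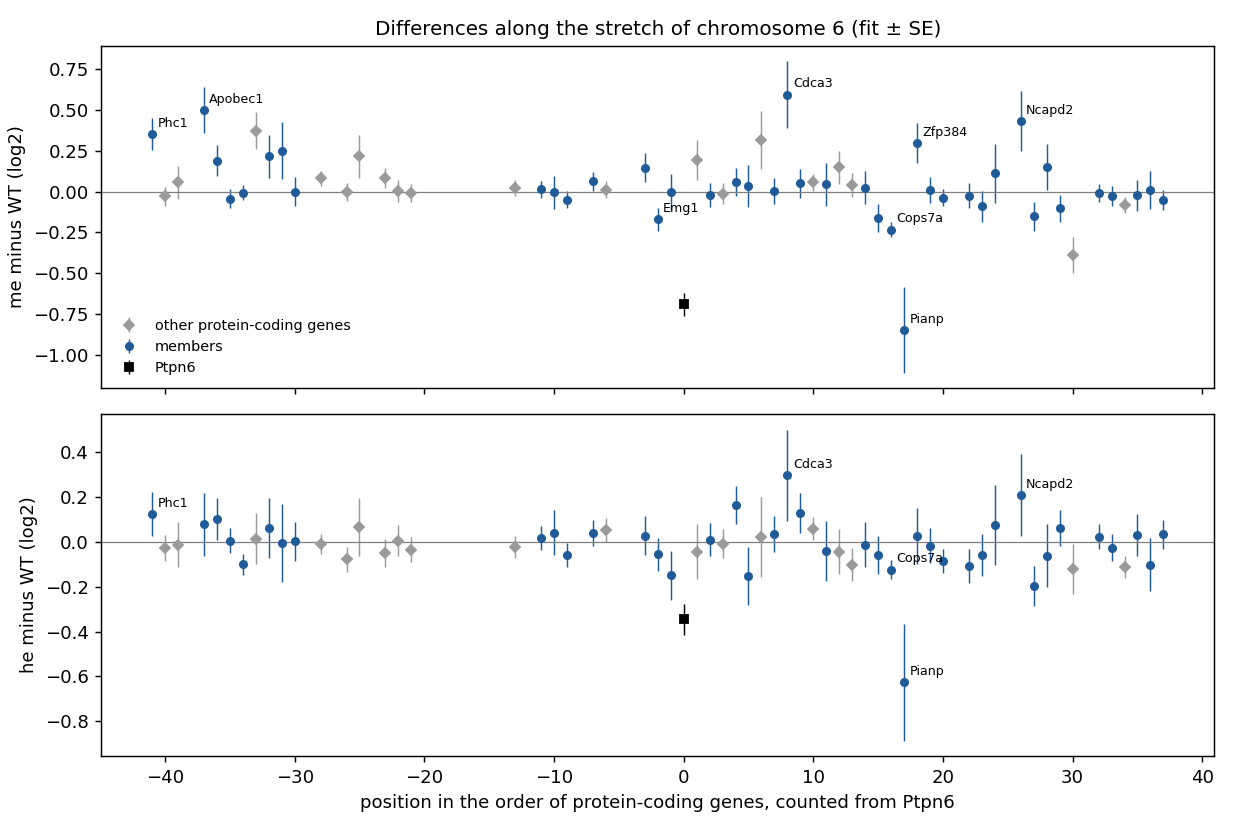
Difference from WT (log2, fit ± SE) of me in the upper panel and he in the lower panel along the order of protein-coding genes on chromosome 6, counted from Ptpn6 at 0. Circles are members, diamonds other measured protein-coding genes of the stretch and the square is Ptpn6. Members with differences of either sign are spread over the stretch, and the adjacent genes Pianp and Zfp384, at positions 17 and 18, have opposite signs.

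Differing members were found both near Ptpn6 and far from it, and no test of distance was made. In RefSeq's gene order the measured members ran from 41 genes before Ptpn6 to 37 genes after it. Of the 21 members within 20 genes, 5 (23.81%) had an unadjusted p under 0.05 for the slope, and of the 20 farther away 3 (15%) did. Before Ptpn6 it was 3 of 15 members and after it 5 of 26. The median size of me minus WT was 0.0491 within 20 genes and 0.0963 beyond. Cops7a, Pianp and Zfp384 are 3 consecutive genes, at positions 16, 17 and 18 after Ptpn6, with values of -0.23, -0.85 and 0.30. Emg1, at -0.17, lies between Lpcat3 (0.15) and Phb2 (0.00).

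The remaining protein-coding genes of the same stretch numbered 36, of which 19 were measured. Of these, 2 (10.53%) had an unadjusted p under 0.05 for the slope. Cd27, a co-stimulatory receptor, was at 9.21, 9.18, 8.65 and 8.58 (WT), 9.10, 8.77 and 8.21 (he) and 8.82, 8.28 and 8.74 (me), with a difference of -0.39 ± 0.11 in me (SE; limma unadjusted p = 0.00713, adjusted p = 0.989). Slc2a3, a glucose transporter, gave 0.37 ± 0.11 (limma unadjusted p = 0.00979, adjusted p = 0.989). Cd4, which was used to isolate the cells, gave 0.15 ± 0.10 and the TNF receptor gene Tnfrsf1a -0.08 ± 0.05. Grcc10, directly after Ptpn6, gave 0.20 ± 0.12. A fixed list of 22 measured genes of the stretch and its edge, which overlaps these, held 4 with an unadjusted p under 0.05 for the slope: Cd27, Slc2a3, the killer cell receptor gene Klrg1 (0.55 in me) and Cd163l1 (-1.31), which RefSeq does not place on chromosome 6. Gapdh, which also lies on this stretch, had no probe set that names it alone and was not tested. In linear intensity its 3′ control probe set read 9754, 10260, 4601 and 5955 (WT), 8879, 4085 and 4588 (he) and 8726, 4960 and 8060 (me). The 5′ control read 1023, 1308, 496.3 and 754 (WT), 914.8, 518.6 and 537.7 (he) and 801.8, 500 and 582.8 (me). Relative to the 3′ signal, the 5′ signal was lower in every me array than in every WT and he array. Whether RNA quality or amplification had a part in the differences was not tested. A list of 24 genes farther out on the low side held 2 with an unadjusted p under 0.05 for the slope, and of 19 measured on the high side 0 had one in limma.

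Where a gene had several probe sets, the brightest one sometimes carried the difference alone. Of the 41 members, 17 had at least 2 probe sets. In 0 of them did 2 probe sets point in opposite directions with both differences over 0.3. No member had more than 1 probe set over that size, so this count could not show disagreement. Smaller differences did have opposite signs, as in Mrpl51 (-0.15 against 0.10 and 0.10) and Acrbp (-0.04 against 0.10). For Cdca3, Pianp and Cops7a the other probe sets lay near 0, as given above. For Phb2 the 3 dimmer probe sets gave -0.19, -0.15 and -0.12, where the brightest gave 0.00, and 1 dimmer Chd4 probe set gave -0.19 where the brightest gave -0.03. Probe sets of one gene can read different transcript ends, and the probe sequences were not used here.

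**Figure D4:**
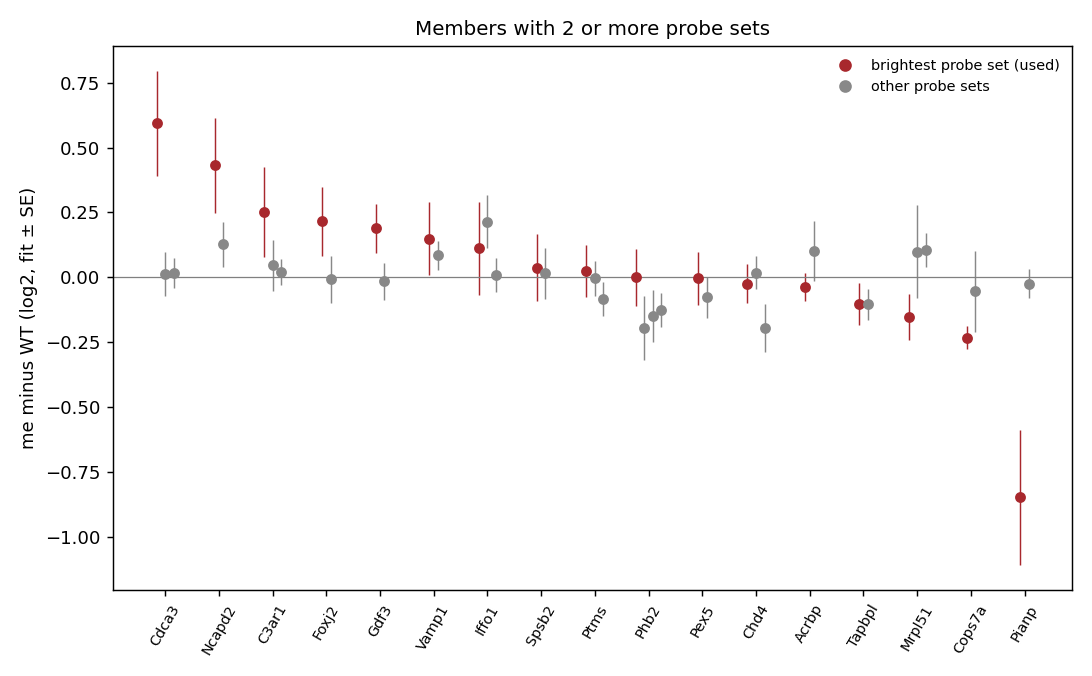
Me minus WT (log2, fit ± SE) of each probe set of the 17 members with at least 2 probe sets, ordered by the brightest probe set. Red points are the brightest probe sets, used for the values above, and grey points the others. The grey points of Cdca3, Cops7a and Pianp lie between -0.05 and 0.02.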

How the data were processed

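The deposited table gives linear intensity for each probe set on each of 10 Affymetrix arrays. Per the labels, 20 ng of RNA was amplified and 10 ug of the product labelled. How the authors summarised and scaled the values is not given in the sources used here. Of 45101 probe sets, 64 controls were left out. The annotation named 1 gene for 34945 of the rest, several genes for 932 and no gene for 9160.

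The log2(intensity + 32) was taken and quantile normalised, since array medians differed by 0.291. limma 3.58.1 in R 4.3.3 fitted all 10 arrays with genotype and array set, leaving 6 residual degrees of freedom, or 7 with the number of mutant copies in place of genotype. Array set is in the fit because the genotypes are spread unequally over the sets (2 and 2 WT, 1 and 2 he, 2 and 1 me); the fit without it is an alternative. Adjustment was Benjamini-Hochberg over 45037 probe sets, at 0.05. The number of arrays limits the precision.

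Named genes are Ptpn6, the 6 members with the smallest p in each of the 5 comparisons, members whose genotypes do not overlap, up to 4 members of each role by level, and up to 4 other genes of the stretch by the slope's p with Cd4, Tnfrsf1a and Gapdh. Atn1, Ing4, Vwf, Grcc10 and the marker genes singled out were chosen after their values were seen. The fixed list of other genes of the stretch wrongly held Cd163l1, which RefSeq places on another chromosome, so genes from RefSeq's order were used. Members and lists were chosen with earlier results of these data known. The fit was tested on simulated data. Same-numbered arrays did not deviate together in every pair (correlations of -0.19 to 0.32 after array set). Arrays of different numbers were not compared, so whether the numbers pair the arrays is not known.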

Additional observations from a re-analysis of the deposited data

How the results depend on the processing

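No member passed an adjusted p of 0.05 in limma in any setting tried, nor at a threshold of 0.1. All 563 recomputed differences of 25 results (named members and Ptpn6) kept their direction, and 3 passed an adjusted p of 0.05, each for Ptpn6 in me minus WT: -0.72 with array weights, -0.70 with the first principal component as a covariate (a setting chosen after seeing the data) and -0.69 without he replicate 2. Counts of members at an unadjusted p under 0.05 moved more. With no array set block they were 4 for me minus WT and 4 for the slope (beside 0.874% of all genes for either), and 0 for he minus WT, me minus he and the midpoint. With me 3 in set B they were 6 for me minus WT and 6 for the slope (beside 4.03% and 4.05% of all genes). In that setting they were 1 for he minus WT (beside 0.863%), 2 for me minus he (4.88% of members, beside 4.53%) and 0 for the midpoint (beside 1.91%). Sex beside the set gave 3 for me minus he and 2 for the midpoint (beside 6.63% and 3.64% of all genes). Array weights gave 7 for he minus WT, 6 for me minus he and 4 for the midpoint. These stood beside 7.69%, 9.73% and 9.93% of all genes, where 4 of 41 is 9.76%. The mean of all probe sets gave 3 for me minus he and 2 for the midpoint (beside 3.19% and 2.08%). For me minus he the count was 2 with a larger pseudocount, an intensity trend with a robust prior or the first principal component. These stood beside 3.64%, 3.1% and 4.29% of all genes. It was also 2 with every probe set counted, where no share was computed, and 3 with only those 2 genotypes (beside 1.97%). For he minus WT it was 1 with a filter on low values or only those 2 genotypes (beside 1.39% and 2% of all genes). For the midpoint it was 0 with a larger pseudocount or the filter (beside 2.51% and 1.53%), and 2 without normalisation (beside 2.79%). Without normalisation or with median centring, 0 members had me apart and 0 had WT apart. Against the set means 1 was ordered, 2 had me apart and 2 WT apart (beside 0.11%, 2.04% and 1.17% of all genes). With probe set means 0 had WT apart. Leaving out 1 array gave 4 to 9 members for me minus WT. It was 4 without me 3, 5 without WT 1 and 9 without me 1, beside 3.96%, 4.68% and 7.62% of all genes. The counts were 1 to 5 for he minus WT (beside 1.74% to 4.35%) and 0 to 3 for me minus he (beside 2.7% to 6.08%). They were 5 to 10 for the slope (5 without me 3, beside 4.26% to 7.15%) and 0 to 3 for the midpoint (beside 1.64% to 4.91%). Of the shapes, 0 to 1 members were ordered and 1 to 5 had me apart, with no share of all genes computed. Ptpn6 ran from -0.74 to -0.63.

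With replicate numbers as a block beside the set, 0 members were called in limma. At an unadjusted p under 0.05 this block gave 10 members for me minus WT (beside 7.33% of all genes). It gave 9 for the slope (beside 8.34%) and 2 for me minus he (beside 3.94%). Whether the numbers pair the arrays is not known.

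The number of arrays limits what can be seen, and no setting separates array set from anything else that differed between the sets.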
